A study of Mus musculus with 12 samples.

Results

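The 8 genes described here encode the core of class I phosphoinositide 3-kinase (PI3K) and AKT signaling: the catalytic subunits Pik3ca (p110α) and Pik3cb (p110β), the regulatory subunits Pik3r1 (p85α), Pik3r2 (p85β) and Pik3r3 (p55γ), and the kinases Pdpk1 (PDK1), Akt1 and Akt2. They were taken by symbol from the 14851 genes of the deposited tables, and all 8 were found and passed the filter on low values in every comparison. The tables identify them by gene ID as Pik3ca 18706, Pik3cb 74769, Pik3r1 18708, Pik3r2 18709, Pik3r3 18710, Akt1 11651, Akt2 11652 and Pdpk1 18607. In the knockout (KO) cells the RNA of the regulatory subunit Pik3r2 was lower than in control cells, Pik3r1 was lower in the Atg5 and Atg7 knockouts, Pik3cb was higher in the Fip200 and Atg7 knockouts, and Akt1 was higher in the Atg5 and Atg7 knockouts. The Pik3r2 difference in the Fip200 knockout (-0.94 on the log2 scale) did not pass in the fit of 6 libraries and passed in that of all 12. Of these differences, that of Pik3r2 in the Atg5 knockout alone still passed when the prefix of the library names was a term, and Pik3cb in the Fip200 knockout also did not pass in 5 of 6 fits that left out a library, without a filter or with a replicate block.

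Class I PI3K is a dimer of 1 catalytic and 1 regulatory subunit that is recruited to activated receptors and phosphorylates the membrane lipid PIP2 to PIP3. The regulatory subunits stabilize p110, hold its basal activity down and carry the SH2 domains that bind phosphorylated receptors and adaptors. PIP3 brings AKT and PDK1 together at the membrane, where PDK1 phosphorylates the AKT activation loop and the mTORC2 complex phosphorylates its tail. In endothelial cells p110α acts below VEGF and angiopoietin receptors, AKT1 is the leading AKT isoform, and AKT inhibits the TSC1-TSC2 complex, the brake on mTORC1. RNA measures neither the protein nor the phosphorylation that carries this signal, and in bulk libraries fewer cells of a type and less RNA per cell cannot be told apart.

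The libraries were made from 562 cells, a line that became immortal without treatment and came from vascular tumors of C57BL/6 Tsc1 iΔEC mice, in which tamoxifen-inducible Scl-Cre deletes Tsc1 in endothelial cells. All 4 groups therefore share the Tsc1 deletion, including the control, whose genotype the labels give as wildtype. Fip200, Atg5 and Atg7, genes required for autophagy, were knocked out by CRISPR-Cas9 from a lentiviral vector with puromycin selection, and 3 libraries were made of each KO and of control cells, 12 in all. The study describes 2 Fip200 KO lines together, and which of them each library came from is not given in the sources used here. Its methods name a guide against EGFP, a gene that mouse cells lack, as the CRISPR control. The same 3 control libraries enter all 3 comparisons with control.

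Between 17266926 and 23629730 reads were counted per library, and 412 to 10046 of them fell on a member. The labels name the tissue as lymphatic endothelial cells. The 9 blood endothelial markers summed to 1199 to 3099 RPKM (reads scaled to gene length and library size) per library, while Prox1, which defines lymphatic endothelium, lay between 0.0366 and 5.79 RPKM. The 6 lymphatic markers together summed to 357 to 470 RPKM in control, 409 to 921 in the Fip200 knockout, 596 to 726 in the Atg5 knockout and 471 to 692 in the Atg7 knockout. Ptprc, Adgre1, Krt8, Col1a1 and Des, markers of leukocytes, epithelium and fibroblasts, stayed under 1 RPKM in all 12 libraries. The 3 leukocyte markers in the tables, of 5 listed, summed to 34.5 to 91.8 RPKM in control, 15.9 to 263 in the Fip200 knockout, 9.94 to 11.7 in the Atg5 knockout and 7.06 to 27.1 in the Atg7 knockout, mostly through Cd68. The 6 fibroblast and mural markers summed to 1.02 to 61.8 RPKM in control and 1.55 to 15.9 in the knockouts, and the 2 epithelial ones, of 4 listed, to 6.19 to 10.6 in control and 0.392 to 6.28 in the knockouts. The part of these sums in the differences between groups was not tested. Of the targeted genes, Atg7 stood at 18.4, 25.0 and 19.8 RPKM in control and 5.40, 2.64 and 8.34 in the Atg7 knockout, where it fell (log2 fold change -1.97, SE 0.37, adjusted p = 0.0216 by limma, and -1.93 with an adjusted p of 0.589 when the prefix of the library names was a term). Rb1cc1, which encodes FIP200, stood at 6.43, 8.27 and 7.73 RPKM in control and 5.18, 6.84 and 2.06 in the Fip200 knockout (-0.74, adjusted p = 0.404). Atg5 stood at 14.2, 11.1 and 10.6 RPKM in control and 8.53, 15.5 and 12.6 in the Atg5 knockout (adjusted p = 0.994). Atg7 stood at 9.99, 11.9 and 9.94 RPKM in the Atg5 knockout and 38.3, 12.4 and 8.23 in the Fip200 knockout, so its level does not single out the cells in which it was targeted. Small CRISPR deletions need not lower the RNA, and none of these levels checks the labels.

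Promoter sequence is shown for 3 members whose RNA passed the test in both the Atg5 and Atg7 knockouts, as context for the values that follow. Each line holds the 250 bases before a RefSeq start on build GRCm38.p6, all on the minus strand, written 5′ to 3′ with searched motifs in capitals.
Pik3r2 (chr8:70776713-70776962): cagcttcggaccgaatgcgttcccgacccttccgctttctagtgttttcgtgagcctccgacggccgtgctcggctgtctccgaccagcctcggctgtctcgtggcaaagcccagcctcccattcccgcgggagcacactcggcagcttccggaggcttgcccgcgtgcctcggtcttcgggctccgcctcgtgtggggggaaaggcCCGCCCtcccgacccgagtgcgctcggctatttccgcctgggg
Pik3r1 (chr13:101768218-101768467): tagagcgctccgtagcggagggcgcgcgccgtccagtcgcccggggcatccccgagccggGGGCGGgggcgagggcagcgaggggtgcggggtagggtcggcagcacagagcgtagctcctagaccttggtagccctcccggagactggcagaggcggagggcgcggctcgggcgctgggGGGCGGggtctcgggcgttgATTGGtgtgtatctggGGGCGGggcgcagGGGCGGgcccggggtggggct
Akt1 (chr12:112674277-112674526): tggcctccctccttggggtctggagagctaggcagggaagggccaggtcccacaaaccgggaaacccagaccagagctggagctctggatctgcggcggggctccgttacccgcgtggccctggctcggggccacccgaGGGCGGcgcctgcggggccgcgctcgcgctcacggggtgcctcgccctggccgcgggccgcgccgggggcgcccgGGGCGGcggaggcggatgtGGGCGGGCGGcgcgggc
The capitals in these lines mark the GC box GGGCGG, read on either strand as GGGCGG or CCGCCC, and in Pik3r1 also the CCAAT box, read as ATTGG. Overlapping GC boxes were counted separately, which gives 1 in Pik3r2, 4 in Pik3r1 and 4 in Akt1. The GC content of these windows was 68.4% in Pik3r2, 76.4% in Pik3r1 and 78.4% in Akt1. Over all 16 starts that RefSeq lists for the 8 members, from 250 bases before to 50 after the start, 10 held a GC box and 5 a CCAAT box, against 35.7% and 37.4% of 32851 promoters. The FOXO letters TGTTTAC stood at 1 of the 16 starts, a second start of Akt1, against 3.6% of all promoters. The STAT letters TTCNNNGAA stood at 2, in Akt2 and Pdpk1, against 8.3%, and the E-box CACGTG at 0, against 7.2%. These matches describe letters only.

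In control cells Akt1 had the highest level per length of the 8 genes, 65.7 ± 7.75 RPKM (mean ± SD, n = 3). Pik3r2 followed with 21.9 ± 4.33 RPKM, and these 2 ranges overlapped neither each other nor that of the next gene. Pik3ca (10.7 ± 1.54), Pik3r1 (10.5 ± 0.288), Akt2 (10.2 ± 4.27), Pdpk1 (8.07 ± 1.15), Pik3r3 (7.27 ± 2.04) and Pik3cb (5.16 ± 0.691) formed the rest of the order, and each overlapped its neighbour. In each knockout Akt1 was again the highest, without overlap with the next gene. In the Fip200 knockout Pik3cb (11.7 ± 1.77) came next and Akt2 (6.17 ± 1.91) last, and in the Atg7 knockout Pik3cb (11.1 ± 2.94) came next and Pik3r1 (6.38 ± 0.864) last, each neighbour below Akt1 overlapping the next. In the Atg5 knockout the order below Akt1 was Pik3r3, Pik3ca, Pik3r2, Pdpk1, Pik3r1, Pik3cb and Akt2, and only Pik3ca and Pik3r2 and then Pdpk1 and Pik3r1 did not overlap as neighbours. Pik3r2 then had rank 3 in the Fip200 knockout, 4 in the Atg5 knockout and 5 in the Atg7 knockout.

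**Figure D1:**
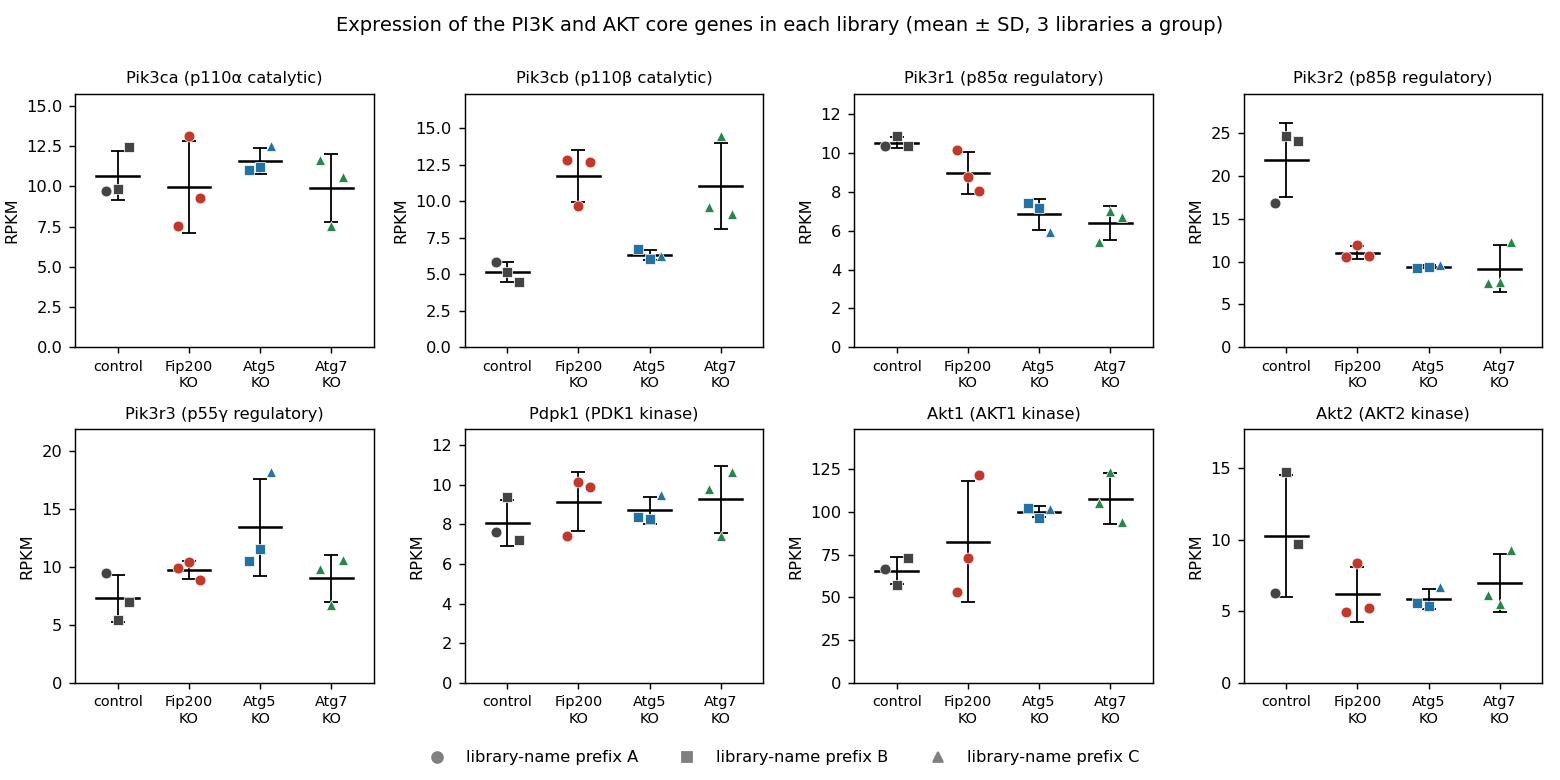
RPKM (vertical axis, from 0) of each of the 8 genes in each library, grouped by control and knockout, with bars for the mean ± SD of 3 libraries and point shapes for the prefix of the library name. All 9 KO libraries lie below the 3 control libraries for Pik3r2 and Pik3r1, and Pik3cb is higher in the Fip200 KO and Atg7 KO libraries than in control.

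Pik3r2 encodes p85β, a regulatory subunit that holds p110 at receptors. Its level was 16.9, 24.6 and 24.1 RPKM in the 3 control libraries, 10.5, 11.9 and 10.7 in the Fip200 knockout, 9.23, 9.36 and 9.59 in the Atg5 knockout, and 7.54, 7.61 and 12.3 in the Atg7 knockout. The highest KO library was below the lowest control library, and within the control group the first library stood lowest. Pik3r2 fell in the Atg5 knockout, with a log2 fold change of -1.16 (SE 0.16, adjusted p = 0.00614 by limma), and in the Atg7 knockout, with -1.23 (SE 0.25, adjusted p = 0.0254). The log2 fold change in the Fip200 knockout was -0.94 (SE 0.22) and missed the threshold at an adjusted p of 0.120, while with all 12 libraries in the fit it passed at the same fold change (adjusted p = 0.0370). Pik3r2 is in the list of genes that the study chose on these same samples, so its direction is not independent evidence. Without control replicate 3 the adjusted p in the Atg7 knockout was 0.108.

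Pik3r1 encodes p85α and, from other starts, shorter regulatory subunits that RPKM per gene do not separate. It stood at 10.3, 10.9 and 10.4 RPKM in control, 10.1, 8.78 and 8.02 in the Fip200 knockout, 7.44, 7.16 and 5.94 in the Atg5 knockout, and 5.40, 7.03 and 6.72 in the Atg7 knockout. Control libraries lay within a narrow range, and every KO library lay below it, the first Fip200 KO library by a small margin. Pik3r1 fell in the Atg5 knockout, with a log2 fold change of -0.59 (SE 0.13, adjusted p = 0.0186 by limma), and in the Atg7 knockout, with -0.69 (SE 0.17, adjusted p = 0.0395). The value in the Fip200 knockout was -0.22 (SE 0.20, adjusted p = 0.598). In the Atg7 knockout it no longer passed without control replicate 2, control replicate 3 or Atg7 KO replicate 1, with adjusted p = 0.109, 0.139 and 0.124.

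Pik3r3 encodes p55γ, a regulatory subunit without the SH3 domain of p85. It measured 9.45, 5.40 and 6.97 RPKM in control, 9.89, 10.4 and 8.87 in the Fip200 knockout, 10.5, 11.5 and 18.2 in the Atg5 knockout, and 9.77, 6.72 and 10.6 in the Atg7 knockout. The Atg5 KO libraries were above all control libraries, whereas the Fip200 KO and Atg7 KO libraries overlapped them. Pik3r3 rose by 0.83 on the log2 scale in the Atg5 knockout (SE 0.27, adjusted p = 0.0555 by limma), with values of 0.42 in the Fip200 knockout (adjusted p = 0.439) and 0.30 in the Atg7 knockout (adjusted p = 0.452). In the Atg5 knockout it no longer passed without control replicate 2, control replicate 3 or Atg5 KO replicate 3, with adjusted p = 0.131, 0.133 and 0.120. The GENCODE annotation of GRCm38 places the protein-coding gene Gm49337 on the same strand over 24.3% of the exon bases of Pik3r3, so reads could be split between them and the Pik3r3 values are uncertain.

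Pik3cb encodes p110β, the catalytic isoform that also answers to G protein-coupled receptors. It stood at 5.84, 5.16 and 4.46 RPKM in control, 12.8, 9.69 and 12.7 in the Fip200 knockout, 6.72, 6.03 and 6.26 in the Atg5 knockout, and 9.65, 14.5 and 9.14 in the Atg7 knockout. All 9 KO libraries were above the highest control library, with the Atg5 KO libraries just above it. Pik3cb rose by 1.11 on the log2 scale in the Fip200 knockout (SE 0.23, adjusted p = 0.0908 by limma) and by 1.01 in the Atg7 knockout (SE 0.22, adjusted p = 0.0307). In the Atg5 knockout the value was 0.28 (SE 0.14, adjusted p = 0.177). In the Fip200 knockout it no longer passed without control replicate 1, 2 or 3 (adjusted p = 0.200, 0.369 and 0.496) or without Fip200 KO replicate 1 or 2 (0.128 and 0.149). Over all tested genes 242 passed in that comparison, against 89, 0 and 0 without control replicate 1, 2 and 3, and 143 and 41 without Fip200 KO replicate 1 and 2. Pik3cb no longer passed in the Atg7 knockout without control replicate 3 (adjusted p = 0.123).

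Pik3ca encodes p110α, the catalytic isoform that most receptor tyrosine kinases use. It ranged from 9.73 to 12.4 RPKM in control, 7.52 to 13.1 in the Fip200 knockout, 11.0 to 12.5 in the Atg5 knockout and 7.55 to 11.6 in the Atg7 knockout. The groups overlapped, and the log2 fold changes were -0.12 (SE 0.26), 0.12 (SE 0.14) and -0.11 (SE 0.21), with adjusted p = 0.848, 0.537 and 0.734 by limma.

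Akt1 encodes the AKT isoform with the highest RNA level here. It measured 66.9, 57.5 and 72.8 RPKM in control, 53.3, 73.0 and 122 in the Fip200 knockout, 102, 96.5 and 102 in the Atg5 knockout, and 105, 124 and 94.4 in the Atg7 knockout. The Atg5 KO and Atg7 KO libraries were all above control, while the Fip200 KO libraries spread from below the lowest to above the highest control library. Akt1 rose by 0.61 on the log2 scale in the Atg5 knockout (SE 0.12, adjusted p = 0.0126 by limma) and by 0.71 in the Atg7 knockout (SE 0.16, adjusted p = 0.0351), and the value in the Fip200 knockout was 0.25 (SE 0.31, adjusted p = 0.710). With all 12 libraries in the fit Akt1 no longer passed in the Atg5 knockout (adjusted p = 0.134). In the Atg7 knockout it no longer passed without control replicate 2, control replicate 3 or Atg7 KO replicate 1, with adjusted p = 0.105, 0.101 and 0.102.

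Akt2 encodes the isoform best known for insulin-driven glucose uptake. Its level was 6.24, 14.7 and 9.71 RPKM in control, 4.95, 8.37 and 5.21 in the Fip200 knockout, 5.56, 5.33 and 6.65 in the Atg5 knockout, and 6.11, 5.47 and 9.27 in the Atg7 knockout. The first control library lay among the KO libraries, so all groups overlapped control. The log2 fold changes were -0.64 (SE 0.36), -0.68 (SE 0.29) and -0.48 (SE 0.33), and none passed, with adjusted p = 0.414, 0.114 and 0.347 by limma. Without control replicate 1, Akt2 passed in the Atg5 knockout at -0.98 (adjusted p = 0.0232), and with median-of-ratios scaling at -0.74 (adjusted p = 0.0985).

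Pdpk1 encodes PDK1, the kinase of the AKT activation loop. It ranged from 7.22 to 9.39 RPKM in control, 7.42 to 10.1 in the Fip200 knockout, 8.28 to 9.48 in the Atg5 knockout and 7.40 to 10.7 in the Atg7 knockout. The ranges overlapped, with log2 fold changes of 0.17, 0.11 and 0.18 and adjusted p = 0.742, 0.583 and 0.550 by limma.

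A gene passed where its adjusted p did not exceed 0.1, and was called where the log2 fold change was also at least 1 in size. In the Fip200 knockout 1 of the 8 members passed, Pik3cb, and it was called, where 1.69% of all tested genes passed lower and 0.356% passed higher, and where 1.64% were called lower and 0.347% called higher. In the Atg5 knockout 2 passed lower and 2 higher, beside 18.7% and 22.9% of all tested genes, and only Pik3r2 was called, where 6.94% of genes were called lower and 4.31% higher. In the Atg7 knockout 2 passed lower and 2 higher, beside 13.7% and 11.3% of all genes, with Pik3r2 called among 6.81% of genes called lower and Pik3cb among 3.29% called higher. The median log2 fold change of the members was 0.02, 0.11 and 0.03 in the Fip200, Atg5 and Atg7 knockouts, and that of all tested genes was 0.02, 0.06 and -0.01. These shares depend on single libraries. The genes passing in either direction numbered 242 in the Fip200 knockout and 0 to 752 when 1 library was left out, 4914 in the Atg5 knockout and 2785 to 4917, and 2955 in the Atg7 knockout and 707 to 3875. The fewest passed without control replicate 2 or 3, without Atg5 KO replicate 1 and without control replicate 3, and the most without Fip200 KO replicate 3, control replicate 1 and Atg7 KO replicate 2.

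Groups that did not overlap were counted in the same way. In the Fip200 knockout 2 members lay below and 1 above all control libraries, beside 12.4% and 11.7% of all tested genes. In the Atg5 knockout the counts were 2 below and 3 above, beside 22% and 28.4%, and in the Atg7 knockout 2 below and 2 above, beside 20.4% and 19.2%.

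**Figure D2:**
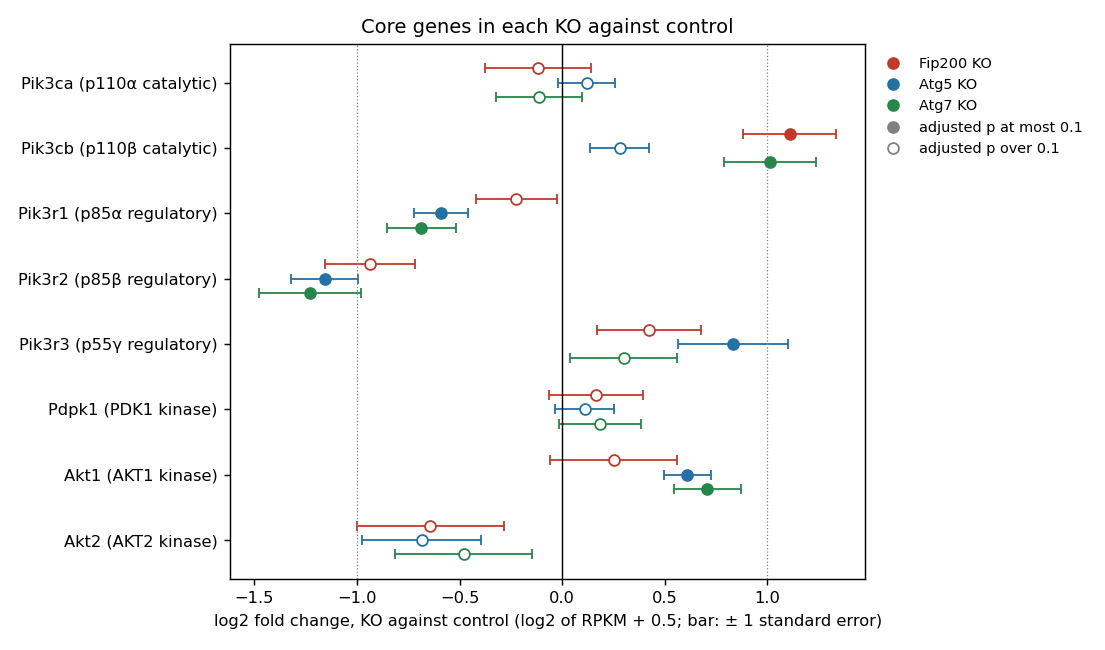
Log2 fold change of each of the 8 genes (rows) in the Fip200, Atg5 and Atg7 knockouts against control, with bars of 1 standard error, filled points for an adjusted p of at most 0.1 and dotted lines at a log2 fold change of 1 in either direction. Pik3r2 lies at -0.94, -1.16 and -1.23, and Pik3cb at 1.11, 0.28 and 1.01.

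The library names in the labels carry 3 prefixes, written here A, B and C, and what they stand for is not given. Control replicate 1 and all Fip200 KO libraries have prefix A, control replicates 2 and 3 and Atg5 KO replicates 1 and 2 have prefix B, and Atg5 KO replicate 3 and all Atg7 KO libraries have prefix C. Atg7 KO and control share no prefix, so for Atg7 KO the prefix and the KO cannot be told apart directly. With the prefix as a term, every Atg7 KO value rests on Atg5 KO replicate 3, the only other library with prefix C. Within prefix A, the 3 Fip200 KO libraries differed from the single control library by a log2 of 0.94 for Pik3cb, -0.59 for Pik3r2 and -0.20 for Pik3r1. That control library lay among the Fip200 KO libraries for Pik3r3 (0.035), Akt2 (-0.050), Akt1 (0.22), Pdpk1 (0.24) and Pik3ca. Within prefix B, the 2 Atg5 KO libraries differed from the 2 control libraries by -1.34 for Pik3r2, 0.79 for Pik3r3, 0.62 for Akt1, -0.51 for Pik3r1 and -1.07 for Akt2, each without overlap. With the prefix as a term over 12 libraries, Pik3r2 in the Atg5 knockout still passed (adjusted p = 0.0361 by limma), and no other member passed in any comparison with control. Of all tested genes 0.384% passed with that term in the Fip200 knockout, 6.43% in the Atg5 knockout and 0.311% in the Atg7 knockout. The members that passed only without the term had values with it of 0.94 for Pik3cb in the Fip200 knockout (adjusted p = 0.530) and of -0.51 for Pik3r1, 0.79 for Pik3r3 and 0.62 for Akt1 in the Atg5 knockout (adjusted p = 0.226, 0.135 and 0.334). In the Atg7 knockout they were 1.12 for Pik3cb, -0.42 for Pik3r1, -1.44 for Pik3r2 and 0.69 for Akt1 (adjusted p = 0.436, 0.729, 0.287 and 0.716).

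Each member was also set beside the other tested genes of its chromosome in the RefSeq table of GRCm38.p6, and the signs of Pik3r2, Pik3r1, Pik3r3 and Pik3cb were those of their chromosome medians. On chromosome 8, which holds Pik3r2, the median log2 fold change of 646 to 649 other genes was -0.36 in the Fip200 knockout, -0.36 in the Atg5 knockout and -0.38 in the Atg7 knockout, and 18.4%, 13.7% and 14.8% of them lay at or below Pik3r2. On chromosome 13, which holds Pik3r1, the medians were -0.25, -0.23 and -0.27, and 53.0%, 24.8% and 21.2% of genes lay at or below Pik3r1. On chromosome 9, which holds Pik3cb, they were 0.22, 0.23 and 0.25, and 96.6%, 54.2% and 93.1% of genes lay at or below Pik3cb. On chromosome 4, which holds Pik3r3, they were 0.26, 0.35 and 0.18. The chromosome of Akt1, chromosome 12, had medians of -0.09, 0.02 and -0.03, and 81.6%, 90.3% and 93.6% of its genes lay at or below Akt1. Akt2, at -0.68 in the Atg5 knockout and -0.48 in the Atg7 knockout, was opposite in sign to the medians of chromosome 7, 0.11 and 0.057. Pik3ca, at 0.12 in the Atg5 knockout, was opposite to the median of chromosome 3, -0.11, and Pdpk1 had the sign of the chromosome 17 median in all 3 knockouts.

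By library, the median of chromosome 8, as a log2 deviation from the mean of the 12 libraries less the median of all genes, was 0.31, 0.24 and 0.36 in control. It was -0.24, -0.11 and 0.16 in the Fip200 knockout, -0.06, -0.06 and -0.31 in the Atg5 knockout, and -0.33, 0.26 and -0.15 in the Atg7 knockout. The chromosome median was above 0 in Atg7 KO replicate 2 and Fip200 KO replicate 3 and below 0 in the other KO libraries. Pik3r2 lay below every control library in each KO library. On chromosome 9 the medians were -0.12, -0.18 and -0.16 in control and between -0.15 and 0.20 in the KO libraries. On chromosome 4 they were -0.21, -0.18 and -0.16 in control and between -0.23 and 0.22 in the KO libraries. On chromosome 13 the medians were 0.20, 0.08 and 0.31 in control and between -0.31 and 0.04 in the KO libraries, and the part of these shifts in the levels of the members was not tested.

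**Figure D3:**
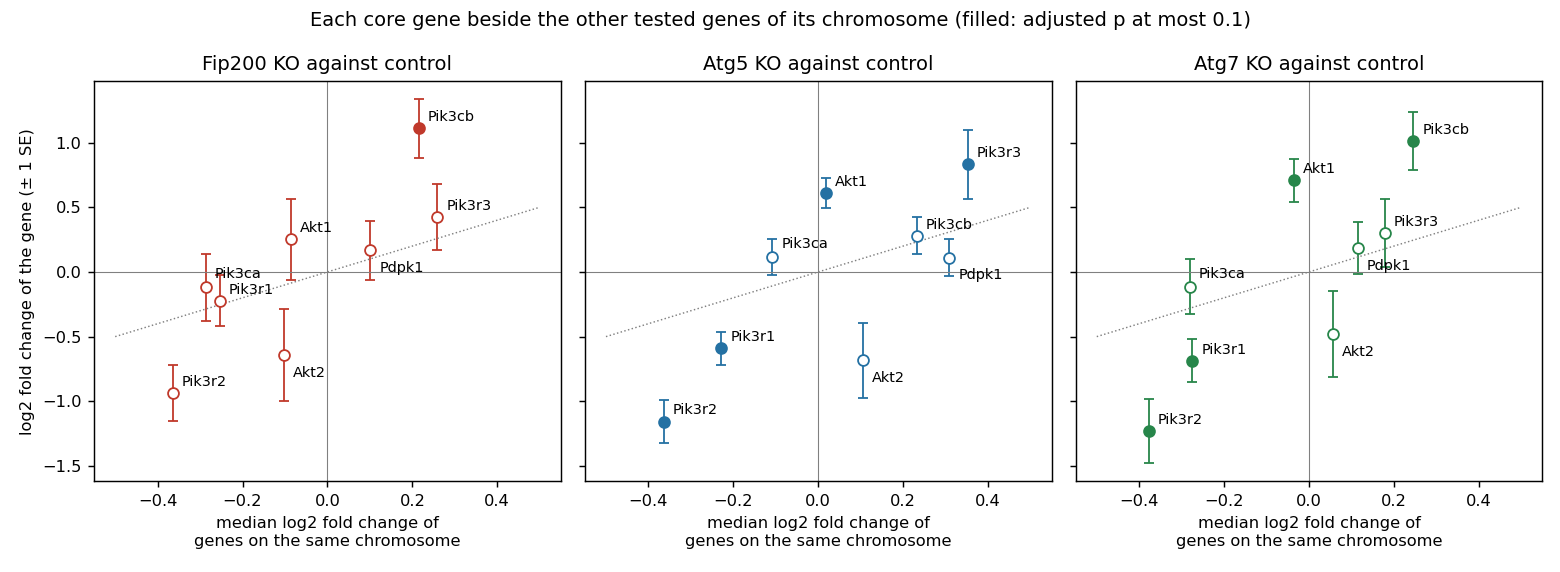
Log2 fold change of each core gene (vertical axis, bars of 1 standard error, filled for an adjusted p of at most 0.1) against the median log2 fold change of the other tested genes on its chromosome, in the Fip200, Atg5 and Atg7 knockouts. The dotted line marks equal values, and Pik3r2, at chromosome medians of -0.36, -0.36 and -0.38, lies below it in all 3 comparisons.

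The knockouts were compared with each other in a single model of the 12 libraries. Of the members 0 passed, and so did 0% of the 12233 tested genes in each of the 3 comparisons, in limma on RPKM and in limma voom on recovered reads. At an unadjusted p under 0.05 there were, in limma on RPKM, 927 genes between Atg5 KO and Fip200 KO, 916 between Atg7 KO and Fip200 KO, and 562 between Atg7 KO and Atg5 KO cells, and 908, 867 and 535 in limma voom. Pik3cb gave the smallest p among the members in 2 of these comparisons, with a log2 difference of -0.83 for Atg5 KO less Fip200 KO (SE 0.20, adjusted p = 0.356 by limma) and 0.73 for Atg7 KO less Atg5 KO (SE 0.20, adjusted p = 0.888), in both cases without overlap of the libraries. Between Atg7 KO and Fip200 KO the smallest was that of Pik3r1, at -0.46 (SE 0.17, adjusted p = 0.581). For Pik3r2 the differences were -0.22 for Atg5 KO less Fip200 KO, -0.29 for Atg7 KO less Fip200 KO and -0.071 for Atg7 KO less Atg5 KO, with standard errors of 0.21. Without Fip200 KO replicate 3 the count over all genes was no longer 0, as 4.83% passed between Atg5 KO and Fip200 KO and 6.36% between Atg7 KO and Fip200 KO. Akt1 was among them, higher in the Atg5 knockout (adjusted p = 0.0874) and in the Atg7 knockout (adjusted p = 0.0557).

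Because RPKM are per length, the share of each isoform in the summed RPKM of its family can be compared within a library, without the scaling between libraries. No p is given for these shares, as the members were chosen with results of these data known. Pik3r2 made up 46.0%, 60.2% and 58.2% of the RNA of Pik3r1, Pik3r2 and Pik3r3 in control libraries. In the KO libraries it made up 34.4%, 38.4% and 38.8% (Fip200 KO), 34.0%, 33.4% and 28.4% (Atg5 KO) and 33.2%, 35.6% and 41.6% (Atg7 KO), so that all 9 lay below the lowest control library. The Pik3r3 share was 18.6 ± 6.47% in control (SD, n = 3), and all KO libraries lay above the control libraries. It was 32.6 ± 0.651% in the Fip200 knockout, 44.6 ± 8.22% in the Atg5 knockout and 36.7 ± 5.85% in the Atg7 knockout. A smaller Pik3r2 part of the same sum raises this share. The Pik3r3 RPKM itself overlapped control in the Fip200 and Atg7 knockouts and did not pass there. The Pik3r1 share was 26.6 ± 1.59% in control, 30.2 ± 2.69% in the Fip200 knockout, 23.5 ± 5.18% in the Atg5 knockout and 26.5 ± 5.61% in the Atg7 knockout. The lowest Fip200 KO library and the highest control library were both at 28.2%, and the Pik3r1 RPKM itself lay below control in all 3 Fip200 KO libraries, where the Pik3r2 part of the same sum was smaller.

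The summed regulatory RNA exceeded the summed catalytic RNA by a log2 ratio of 1.24, 1.45 and 1.29 in control. In KO libraries this ratio was lower, from 0.33 to 0.59 in the Fip200 knockout, 0.62 to 0.85 in the Atg5 knockout and -0.04 to 0.59 in the Atg7 knockout. Pik3ca made up 67.2 ± 5.74% of the catalytic RNA in control, 45.6 ± 10.6% in the Fip200 knockout, 64.6 ± 2.27% in the Atg5 knockout and 47.5 ± 11.5% in the Atg7 knockout, where only the Atg5 KO libraries overlapped control. Akt1 was 86.4 ± 6.15% of the sum of Akt1 and Akt2 in control and 93.5 ± 2.23% over the 9 KO libraries, with overlap. Within prefix A the Pik3r2 share differed between the 3 Fip200 KO libraries and the control library by -8.85 percentage points and the Pik3r3 share by 6.87, and within prefix B the Atg5 KO libraries differed by -25.5 and 24.9.

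**Figure D4:**
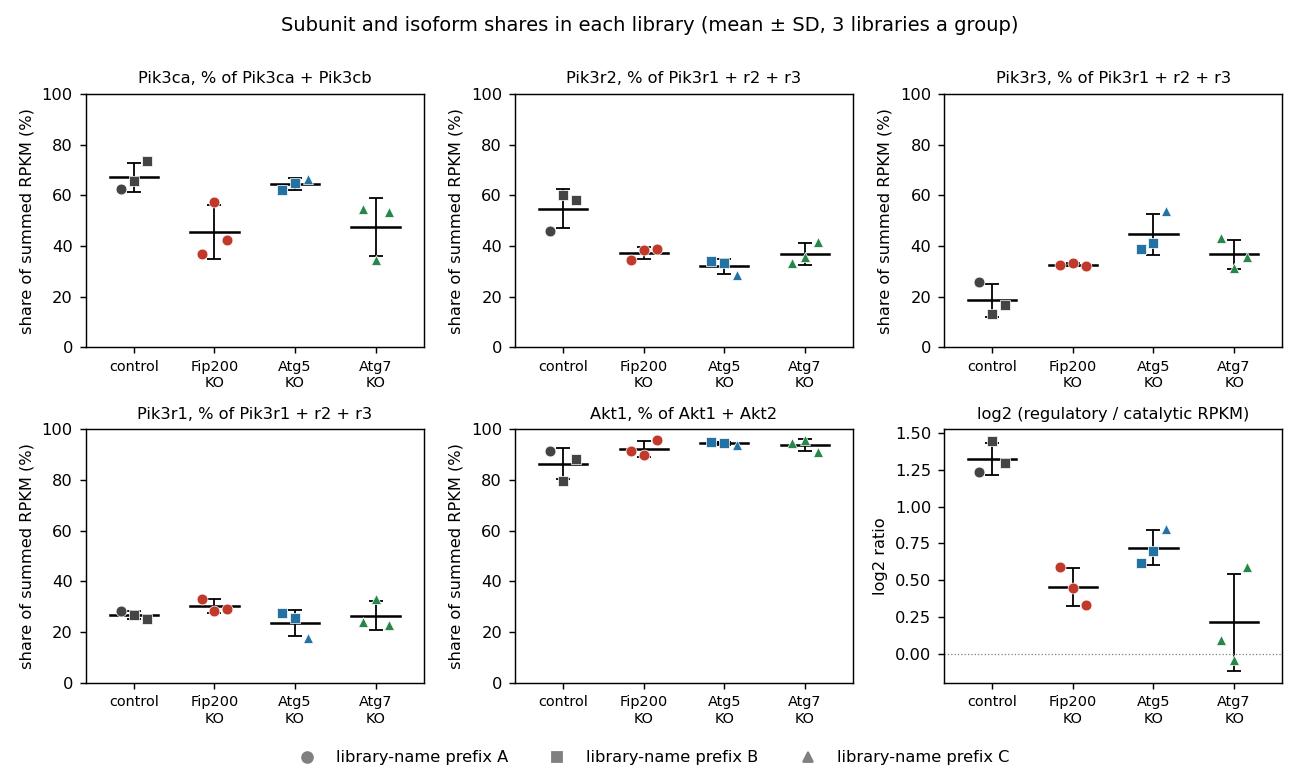
Share of summed RPKM in percent for Pik3ca, Pik3r1, Pik3r2, Pik3r3 and Akt1 within their families, and the log2 ratio of regulatory to catalytic RPKM, in each library with the mean ± SD of 3 libraries and point shapes for the prefix of the library name. The Pik3r2 share and the log2 ratio are lower in each KO library than in the 3 control libraries, and the Pik3r3 share is higher. The shares of a family are tied through their sum, and the Pik3r3 RPKM itself overlaps control in the Fip200 and Atg7 knockouts.

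The genes most like each member over the 12 libraries, on log2(RPKM + 0.5) and among 8566 genes of at least 2 RPKM in every library, were read as a description, since the libraries share groups, depth and composition. Pik3r2 was most like Prkaca (Pearson's r = 0.98) and Hook2 (0.96), Pik3r1 most like Zfyve16 (0.97) and Plekho1 (0.95), and Akt1 most like Synj2bp (0.98) and Sf3b3 (0.97). Prkaca, the catalytic subunit of protein kinase A, stood at 58.4 to 81.8 RPKM in control and 30.1 to 41.2 RPKM in the KO libraries. Pik3cb was most like Ece2 and Ckap4 (0.90 and 0.89), Pik3ca most like Ep300 and Adam17 (0.93 and 0.90), and Pik3r3 most like Ppcs and Tmem158 (0.93 and 0.92). Akt2 was most like Uevld and Txndc5 (0.92 and 0.91), and Pdpk1 like Zfp871 and Heatr6 (0.89 and 0.88).

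Around the core, 9 lists held 91 further genes of the pathway, of which 90 were in the tables and 83 were tested in each comparison. In the Fip200 knockout 3 passed lower and 1 higher, in the Atg5 knockout 22 lower and 16 higher, and in the Atg7 knockout 14 lower and 6 higher. The shares over all tested genes were 1.69% lower and 0.356% higher, 18.7% and 22.9%, and 13.7% and 11.3%. The median log2 fold changes of the pathway genes were -0.05, -0.03 and -0.10, against 0.02, 0.06 and -0.01 over all genes. Where the prefix entered the model the numbers passing were 0, 7 and 0, beside 0.384%, 6.43% and 0.311% of all genes. Without control replicate 3 they were 0, 30 and 5, beside 0%, 29.3% and 6.13% of all genes.

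Among 15 receptors that recruit PI3K, 11 were tested, and 3 passed in the Fip200 knockout, 5 in the Atg5 knockout and 3 in the Atg7 knockout, beside 2.05%, 41.5% and 25.1% of all tested genes that passed in either direction. Met, the receptor of hepatocyte growth factor, stood at 9.33 ± 2.74 RPKM in control and rose by 1.53, 1.51 and 1.50 on the log2 scale in the 3 KO cells (adjusted p = 0.0594, 0.0166 and 0.0365 by limma). Fgfr1, a receptor for fibroblast growth factors, stood at 105 ± 11.5 RPKM in control and fell in the Fip200 knockout (log2 fold change -1.61, adjusted p = 0.0266) and in the Atg5 knockout (-1.43, adjusted p = 0.00497), with -1.45 in the Atg7 knockout (adjusted p = 0.106, and 0.00863 without Atg7 KO replicate 2). Flt1, the VEGF receptor 1 gene and also in the list the study chose on these samples, ranged from 16.1 to 34.1 RPKM in control. Flt1 fell in the Fip200 knockout (-3.66, adjusted p = 0.0995) and in the Atg7 knockout (-2.99, adjusted p = 0.0196), and its value was -1.54 in the Atg5 knockout (adjusted p = 0.122, and 0.0845 without Atg5 KO replicate 2). Of 9 adaptors, Gab1, which docks PI3K at receptors, fell from 5.71 ± 2.43 RPKM to 0.394, 0.708 and 0.611 RPKM, log2 fold changes of -2.81, -2.44 and -2.55 (adjusted p = 0.0395, 0.0119 and 0.0180 by limma). Its size depended on the pseudocount, and in the Fip200 knockout Gab1 was at -3.90 with 0.1, at -2.24 with 1 and at -5.15 in limma voom, where it did not pass (adjusted p = 0.139). Flt1 in the Fip200 knockout did not pass with a pseudocount of 0.1, without a filter, without trend or in limma voom, with adjusted p from 0.103 to 0.145. In the Fip200 knockout Met, Fgfr1, Flt1 and Gab1 did not pass without control replicate 2 or 3, with adjusted p from 0.167 to 0.490, and neither did any other gene. Met, Flt1 and Gab1 also did not pass without Fip200 KO replicate 2, Met and Flt1 without Fip200 KO replicate 1, and Flt1 without control replicate 1, with adjusted p from 0.104 to 0.220. Met did not pass in the Atg7 knockout without control replicate 2, control replicate 3 or Atg7 KO replicate 1, with adjusted p from 0.111 to 0.136. With the prefix as a term the Atg7 KO values were -0.58 for Flt1 (adjusted p = 0.927), 0.73 for Met (adjusted p = 0.719) and -1.28 for Gab1 (adjusted p = 0.671). In the Atg5 knockout Met and Gab1 still passed with that term (adjusted p = 0.0800 and 0.0803). Fgfr1 did not pass with it in the Atg5 knockout (-1.30, adjusted p = 0.239) or in the Fip200 knockout (-1.51).

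Of the 8 phosphatases that remove PIP3 or act on AKT, 0 passed in the Fip200 knockout, 4 in the Atg5 knockout and 2 in the Atg7 knockout, shares near the 2.05%, 41.5% and 25.1% of all tested genes. Inpp4a, which acts on PI(3,4)P2, a lipid made from PIP3, fell in the Atg5 and Atg7 knockouts, with -0.66 and -0.63 (adjusted p = 0.0313 and 0.0850 by limma). Inpp4a fell outside the rule for named genes and was picked after its values were seen. Of 6 other class I genes, Pik3cg (p110γ) rose by 1.29 in the Atg5 knockout (adjusted p = 0.0176), from 0.679 to 2.29 RPKM, and none passed in the others. With the prefix as a term Pik3cg was at 1.41 in the Atg5 knockout and did not pass (adjusted p = 0.118). Among the class II and III genes, 1 of 3 tested passed, higher in the Atg5 knockout.

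Of 8 genes around mTORC2 and AKT, 5 passed in the Atg5 knockout, 1 lower and 4 higher, and 1 in the Atg7 knockout, beside 41.5% and 25.1% of all tested genes. Of 15 genes listed as AKT substrates and effectors, 0, 6 and 3 passed in the Fip200, Atg5 and Atg7 knockouts, beside 2.05%, 41.5% and 25.1% of all tested genes. The called one was Eif4ebp1, the translation repressor 4E-BP1, which mTORC1 and not AKT itself phosphorylates, and it fell in the Atg5 knockout with -1.07 (adjusted p = 0.0227). With the prefix as a term Eif4ebp1 was at -0.78 in the Atg5 knockout and did not pass (adjusted p = 0.272). In the Atg7 knockout Eif4ebp1 was at -0.56 (adjusted p = 0.185, and 0.0320 without Atg7 KO replicate 2). Of 12 other kinases that PDK1 phosphorylates, 0, 7 and 4 passed, beside the same shares of all genes. Sgk1, a kinase close to AKT and in the list that the study chose on these samples, stood at 177 to 245 RPKM in control and 40.0 to 111 RPKM in the KO libraries. Sgk1 fell in the Atg5 and Atg7 knockouts, with -1.33 and -1.08 (adjusted p = 0.00848 and 0.0153), and was at -1.61 in the Fip200 knockout (adjusted p = 0.101, and 0.0470 without Fip200 KO replicate 3). With the prefix as a term Sgk1 was at -1.10 in the Atg5 knockout (adjusted p = 0.151) and at -0.41 in the Atg7 knockout (adjusted p = 0.857). Sgk2, at 0.361 RPKM in control, passed in the Atg5 knockout at 1.01 (adjusted p = 0.0981). It did not pass when any 1 library except control replicate 1 was left out, with adjusted p from 0.102 to 0.225. Nor did Sgk2 pass with a pseudocount of 1, no filter, median-of-ratios scaling or all 12 libraries, with adjusted p from 0.107 to 0.239. With the prefix as a term its adjusted p was 0.502.

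FOXO factors are transcription factors that AKT keeps out of the nucleus, and 16 genes they induce were listed. None passed higher, and 0, 6 and 5 passed lower in the Fip200, Atg5 and Atg7 knockouts, where 1.69%, 18.7% and 13.7% of all tested genes passed lower and 0.356%, 22.9% and 11.3% higher. The median log2 fold changes of the list were -0.22, -0.43 and -0.45, against 0.02, 0.06 and -0.01 over all genes. Klf2, a flow-responsive endothelial factor, fell in the Atg5 knockout (-2.01, adjusted p = 0.0483 by limma) and in the Atg7 knockout (-1.58, adjusted p = 0.0389), with -1.56 in the Fip200 knockout (adjusted p = 0.110, and 0.0978 without Fip200 KO replicate 3). Klf2 did not pass in the Atg5 knockout without control replicate 1 or 3 (adjusted p = 0.101 and 0.137), nor in the Atg7 knockout without control replicate 3 or Atg7 KO replicate 1 (adjusted p = 0.141 and 0.125). Bcl2l11, which encodes the death protein BIM, stood at 18.2 to 35.6 RPKM in control and 7.79 to 9.39 RPKM in the Atg7 knockout, where it fell with -1.48 (adjusted p = 0.0193), and it fell with -0.71 in the Atg5 knockout (adjusted p = 0.0988). In the Atg5 knockout Bcl2l11 did not pass without control replicate 2 or 3 or any of the Atg5 KO replicates, with adjusted p from 0.128 to 0.234. Of the other 9 alternatives it passed only with a pseudocount of 1 and with median-of-ratios scaling, and under the rest it missed the threshold, with adjusted p up to 0.317. Sesn1, a stress-induced inhibitor of mTORC1 signaling, fell in the Atg7 knockout with -1.06 (adjusted p = 0.0516), and was at -0.51 in the Atg5 knockout (adjusted p = 0.299, and 0.0477 without Atg5 KO replicate 3). Sesn1 did not pass in the Atg7 knockout without control replicate 2, control replicate 3 or Atg7 KO replicate 1, with adjusted p = 0.138, 0.135 and 0.153. With the prefix as a term, Klf2 was at 0.71 and Sesn1 at -2.33 in the Atg7 knockout (adjusted p = 0.786 and 0.235), and Klf2 at -1.15 in the Atg5 knockout (adjusted p = 0.199).

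**Figure D5:**
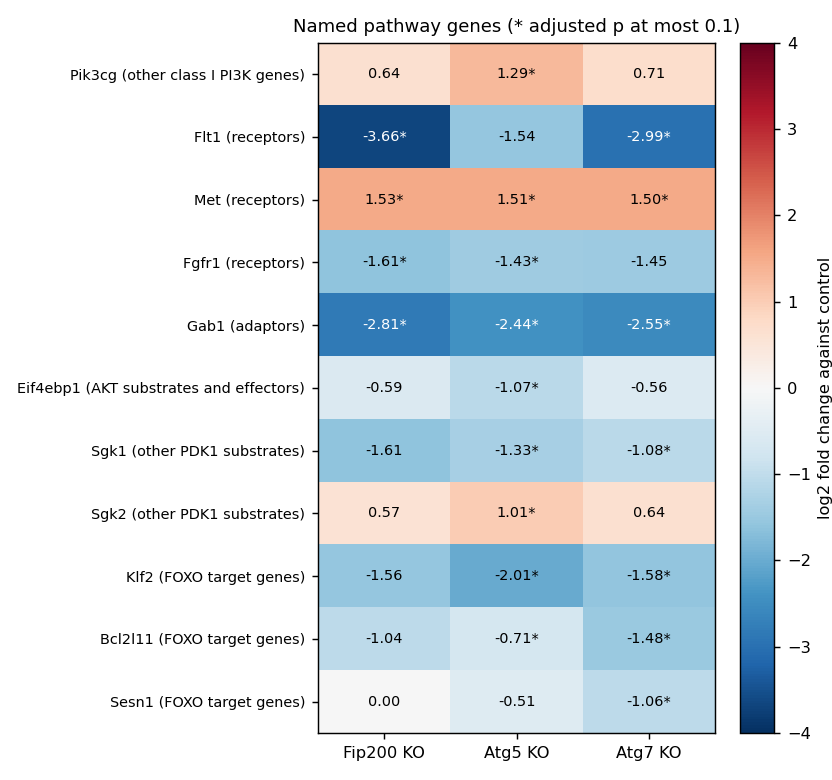
Log2 fold change against control of the named pathway genes (rows, with their list) in the Fip200, Atg5 and Atg7 knockouts (columns), coloured from -4 to 4, with an asterisk for an adjusted p of at most 0.1. Met is higher and Gab1 lower with an asterisk in all 3 KO cells, and Klf2 and Sgk1 carry one in the Atg5 and Atg7 knockouts.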

How the data were processed

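RNA of 562 cells was sequenced in 12 directional libraries, 3 of control cells and 3 of each knockout. The authors trimmed adapters, aligned with TopHat2, counted reads per known transcript in Bioconductor and tested groups with edgeR, and tool versions, genome build, annotation and strand setting are not given in the sources used here. They deposited 3 tables of RPKM values per library, reads scaled by gene length and library total. The signal columns that the authors deposited, group means of reads divided by size factors, served to recover whole reads (100% of values within 0.05 of a whole number). The authors' own test columns (fold change, log2 fold change, p and adjusted p) were left aside.

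Genes reaching 0.5 RPKM in 3 or more fitted libraries were tested on log2(RPKM + 0.5) by limma 3.58.1 (R 4.3.3) with trend, and p-values were adjusted by Benjamini-Hochberg over 11784 to 12233 genes. Fold changes are on that scale, which understates low genes. Each KO was fitted with the control in 6 libraries, and KO cells were compared in 1 fit of 12. The script was tested on simulated data. The alternatives were other pseudocounts (0.1 and 1), no filter, median-of-ratios scaling, no trend, a replicate block, all 12 libraries, the library-name prefix as a term, leaving out each library and, added after seeing the data, limma voom on the recovered reads. An exact permutation test planned for the subunit shares is not reported.

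The members, the lists and the tests were chosen with earlier results of these data known, and the chromosome values were added last. Named genes are the members, the targeted genes, up to 3 called genes per list with the largest mean change, and the 2 genes most correlated with each member. No libraries were duplicates (chi-square per degree of freedom at least 8.66). The study describes the samples as independent replicates, and the labels do not say what separated them, so p-values may measure technical spread. Python 3.11.15, numpy 2.4.6, pandas 2.3.3 and matplotlib 3.10.9 were used.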

Additional observations from a re-analysis of the deposited data

How the results depend on the processing

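The number of members passing in the Fip200 knockout (1) became 0 without a filter, with the replicate block and when the prefix was a term, and 2, Pik3cb and Pik3r2, with all 12 libraries in the fit. With the prefix term it was 1 in the Atg5 knockout and 0 in the Atg7 knockout, against 4 in each. With median-of-ratios scaling it was 5 in the Atg5 knockout, with Akt2 added. Leaving out 1 library gave 0 to 1 members in the Fip200 knockout, 3 to 5 in the Atg5 knockout and 0 to 4 in the Atg7 knockout, and 0 to 1 for Fip200 KO against either other KO. Over all genes the counts were 0 to 752, 2785 to 4917, 707 to 3875 and, for Atg5 KO and Atg7 KO against Fip200 KO, 0 to 588 and 0 to 775. Pathway genes passing (4, 38 and 20 in the Fip200, Atg5 and Atg7 knockouts) were 7, 18 and 17 with all 12 libraries and 0, 7 and 0 with the prefix term. They were 2 in the Fip200 knockout with limma voom on recovered reads and 13 in the Atg7 knockout without a filter. Leaving out 1 library gave 0 to 7, 20 to 43 and 5 to 27, and the libraries behind the lowest counts were control replicates 2 and 3, Atg5 KO replicate 1 and control replicate 3. The cause was not tested.

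Same-numbered control and KO libraries deviated with correlations of -0.242 to 0.09995, so the numbers were not read as pairs. Of the KO libraries, 1 of 9 correlated best with the control of their own number. With the replicate block Pik3cb in the Fip200 knockout had an adjusted p of 0.190, the pathway genes passing in the Atg7 knockout were 13, and 4 members passed in each of the other knockouts. Among the other named genes Met in the Fip200 knockout (adjusted p = 0.114) and Bcl2l11 and Sgk2 in the Atg5 knockout (0.167 and 0.101) no longer passed with the block, and Klf2 in the Fip200 knockout (0.0888) and Fgfr1 in the Atg7 knockout (0.0996) passed.

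Signs turned only for values near 0 or under the prefix term, where the Atg7 KO values rest on Atg5 KO replicate 3. With that term Atg7 KO values became -0.21 for Pik3r3, -0.030 for Pdpk1, 0.28 for Eif4ebp1, 0.71 for Klf2 and -0.43 for Sgk2, and Sesn1 in the Fip200 knockout became 0.24. Sesn1 there was 0.000982 with a pseudocount of 1, and Atg5 in the Atg5 knockout -0.051 with median-of-ratios scaling. Leaving out 1 library gave Pik3ca -0.32 to 0.057 in the Fip200 knockout and -0.23 to 0.061 in the Atg7 knockout, Akt1 -0.068 to 0.52 and Sesn1 -0.15 to 0.27 in the Fip200 knockout, and Atg5 -0.18 to 0.23 in the Atg5 knockout. The Pik3r1 share, 0.126 percentage points higher over the KO libraries, was -0.21 as a log2 difference. Counting error covers reads only.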
